A study of Rattus norvegicus with 4 samples.

Results

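The effect of kainic acid in animals that also received NAP was taken as the difference between 2 of the 4 arrays of the series, the KA+NAP array minus the NAP array. RNA came from the CA3 area of the hippocampus of Sprague-Dawley rats, collected 24 h after an injection into the hippocampus. The PBS group received the vehicle, the KA group kainic acid, the NAP group the peptide NAP, and the KA+NAP group both agents. The labels give NAP as 1e-13 M for the KA+NAP group and no dose for the NAP group. They state no dose of kainic acid, no age and no sex. Every group had 1 array, and the labels do not say whether its RNA came from 1 animal or from a pool. No difference below therefore carries a replicate error, no test was made, and a gene was called when its intensity plus 10 differed at least 2-fold.

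Kainic acid is an agonist of kainate-type glutamate receptors. Injected into the hippocampus it drives seizures and kills pyramidal neurons, and CA3 pyramidal cells, which carry dense kainate receptors, are known as the most sensitive. Astrocytes and microglia become reactive around the dying cells, and blood-borne cells enter the tissue over the following days. NAP (davunetide) is a short peptide derived from ADNP, activity-dependent neuroprotective protein, and is known to interact with microtubules.

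A gene's value was the MAS5 intensity of its brightest probe set, and differences are of log2(intensity + 10). Of 14218 named genes, 9490 had a mean intensity over the 4 arrays above 62.75, the median of all probe sets other than controls, and entered the comparison. Median intensities of all probe sets were 58 to 65 on the 4 arrays. All 7 CA3 pyramidal markers were above the filter, and all 7 were lower with KA+NAP than with NAP, with a summed intensity of 13191 with PBS, 12457 with NAP, 10564 with KA and 8809 with KA+NAP. Markers listed for other hippocampal neurons were also measured: 4 CA1 pyramidal markers summed to 2337, 1250, 552 and 1964 in the same order, and 4 dentate granule markers to 2125, 3105, 3113 and 1345. The dentate sum includes the peptide precursor gene Pdyn (1146, 1858, 2330 and 561), which makes most of its spread, and Prox1 read 932, 1194, 753 and 747. Blood also differed between arrays, since the haemoglobin gene Hbb read 5, 1430, 186 and 1549, and its KA+NAP minus NAP difference was only 0.11. The NAP array itself lay above the PBS array in 54.0% of genes, and in 65.6% of the genes called higher and 74.2% of those called lower in the present comparison.

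Kainic acid in the presence of NAP was accompanied by more genes at higher than at lower intensity. The KA+NAP array exceeded the NAP array at least 2-fold in 538 genes (5.67%) and was below it by as much in 229 (2.41%), 8.08% in either direction. The median difference over all 9490 genes was 0.03, and the central 90% of genes, from the 5th to the 95th percentile, lay between −0.77 and 1.06. At 4-fold there were 83 higher and 16 lower genes, and at 8-fold 17 higher genes and 1 lower gene, Alb, which has a dim KA+NAP intensity. Genes called higher had a median intensity of 121 with NAP and 345 with KA+NAP, and genes called lower 353 and 131. Of the higher genes, 142 had a NAP intensity at or below the filter value and so passed through the arrays on which they were bright, and 41 of the lower genes had a KA+NAP intensity at or below it. With the filter on the PBS and NAP arrays, a setting chosen after the data had been seen, 399 genes were higher and 264 lower. At the edge of the call, Tcfl5 (63 with NAP, 136 with KA+NAP) and Mob3a (110 and 230) were just inside, and Coq10b (324 and 656) and Sdad1 (128 and 265) just outside. On the lower side Aldh1l1 (386 and 188) was just inside and Shroom2 (1727 and 859) just outside.

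**Figure D1:**
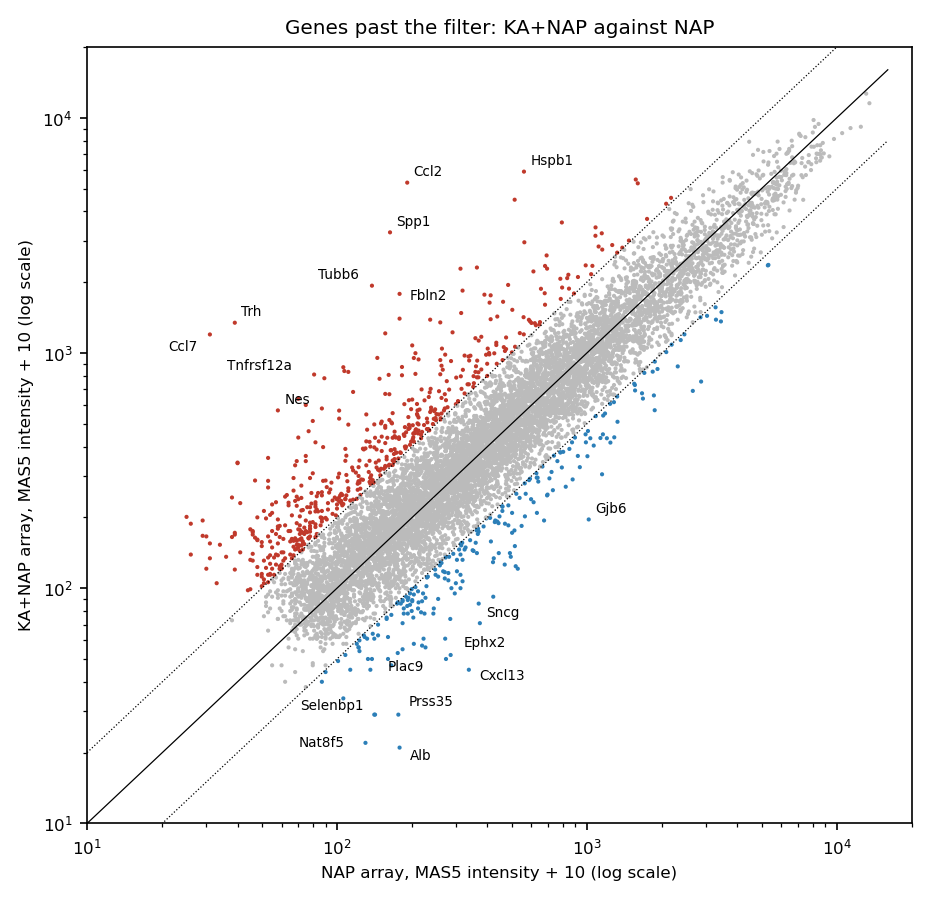
Intensity of the 9490 genes past the filter on the NAP array (x axis) and the KA+NAP array (y axis), both as MAS5 intensity plus 10 on log scales, 1 point per gene. The solid line marks equality and the dotted lines 2-fold; the 538 red points lie above the upper and the 229 blue points below the lower dotted line, and the 9 genes farthest from equality on each side are named.

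Most of the called genes were also ordered by kainic acid on the other pair of arrays, PBS and KA, which this comparison does not use. KA minus PBS was above 0 for 509 of the 538 higher genes (52.2% of all genes) and below 0 for 207 of the 229 lower genes (47.2% of all genes). Both kainic acid arrays lay above both arrays without it for 494 higher genes, 91.8%, against 32.3% of all genes, and below both for 205 lower genes, 89.5%, against 28.7%. The call itself fixes part of that order, because it already places KA+NAP on one side of NAP. The filter can add to it. Of the 538 higher genes, 142 had a NAP intensity at or below the filter value and passed through their brighter arrays. How much this adds was not tested. In KA minus PBS 466 genes (4.91%) were called higher and 227 (2.39%) lower. The genes called higher in both differences numbered 297, which is 55.2% of the list with NAP and 63.7% of the list without it. Those called lower in both numbered 84, which is 36.7% and 37.0%. Genes called in one list and not in the other are not thereby shown to differ between them.

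The highest differences belonged to chemokines, a neuropeptide precursor and genes of matrix, cytoskeleton and stress protection. Ccl7, a monocyte chemoattractant, had intensities of 10 with PBS, 21 with NAP, 1239 with KA and 1189 with KA+NAP, a difference of 5.27. Trh, the precursor of thyrotropin-releasing hormone, had 11, 29, 1242 and 1335 in the same order, a difference of 5.11. Ccl2, the main chemoattractant of monocytes, had 40, 181, 5786 and 5291, a difference of 4.79. Ccl7 and Trh were dim on the NAP array, and with a pseudocount of 32 the order was Ccl2 at 4.64, Ccl7 at 4.53 and Trh at 4.49. For all 3 genes both kainic acid arrays were more than an order of magnitude above both others, and the KA and KA+NAP arrays were close to each other. Spp1, which encodes the secreted glycoprotein osteopontin, followed at 4.32 with 47, 153, 1087 and 3248, and here KA+NAP stood well above KA as well. Tubb6, a beta-tubulin isotype, differed by 3.81 (40, 128, 1616 and 1923) and Hspb1, the small heat shock protein HSP27, by 3.40 (123, 550, 5423 and 5894). Fbln2, the matrix protein fibulin 2, differed by 3.33, and Tnfrsf12a, the receptor of the cytokine TWEAK, by 3.32.

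The remaining 7 of the 15 highest genes were Nes, Sox7, Tcim, S100a10, Lox, Slpi and Cd44. Nes, the intermediate filament nestin of immature and reactive glia, read 55 with PBS, 48 with NAP, 292 with KA and 560 with KA+NAP. The endothelial transcription factor Sox7 differed by 3.19 (43, 60, 401 and 629) and Tcim by 3.13 (52, 79, 841 and 771). Slpi, an inhibitor of leukocyte proteases, differed by 3.09 with intensities of 14, 30, 100 and 330. Lox, the lysyl oxidase that cross-links collagen, differed by 3.10, yet its KA array at 1458 was far above its KA+NAP array at 332, against 19 with PBS and 30 with NAP. In all 15 genes both kainic acid arrays were above both arrays without it.

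**Figure D2:**
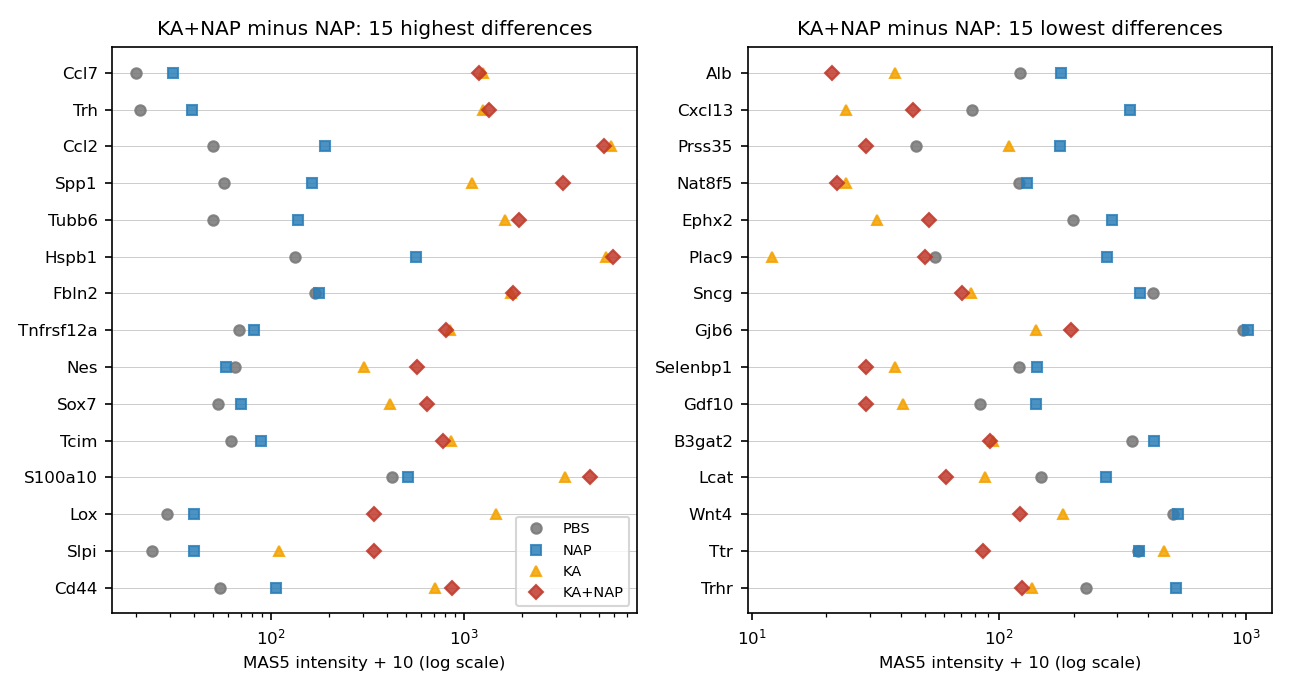
MAS5 intensity plus 10 on a log scale for the 15 genes with the highest (left) and the 15 with the lowest (right) KA+NAP minus NAP difference, 1 symbol per array. In the left panel the KA and KA+NAP symbols lie to the right of the PBS and NAP symbols for every gene, while on the right Prss35 and Ttr have a KA symbol above PBS.

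The lowest differences mixed serum and border-tissue genes with astrocyte and neuronal genes. Alb, the serum protein albumin, had intensities of 111 with PBS, 168 with NAP, 28 with KA and 11 with KA+NAP, a difference of −3.08. That value rests on the dim signal of 11: with a pseudocount of 32 Alb was at −2.22, behind Cxcl13 at −2.42 and Gjb6 at −2.25, and with a pseudocount of 2 at −3.71. Cxcl13, a B-cell chemoattractant, had 68, 327, 14 and 35, a difference of −2.90, and −0.79 when KA+NAP was set against PBS. Prss35, a secreted protease-like protein, had 36, 166, 100 and 19, a difference of −2.60, and was the opposite way without NAP. Plac9 had 45, 263, 2 and 40, so that its −2.45 was −0.14 against PBS. In Alb, Cxcl13, Prss35 and Plac9 the NAP array was the highest of the 4, and the size of the difference depends on it.

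The next low genes, Nat8f5, Ephx2, Sncg and Gjb6, differed less between the PBS and NAP arrays than Alb did. Nat8f5, of the N-acetyltransferase 8 family, had 110 with PBS, 120 with NAP, 14 with KA and 12 with KA+NAP, a difference of −2.56. Ephx2, soluble epoxide hydrolase, which degrades epoxides of fatty acids, had 189, 275, 22 and 42, a difference of −2.45. Sncg, gamma-synuclein, an axonal protein, had 409, 363, 67 and 61, a difference of −2.39. Gjb6, the astrocyte gap junction protein connexin 30, had 956, 1007, 131 and 186, a difference of −2.38. In each of these 4 genes both kainic acid arrays were below both others by a wide gap. The same order held for Selenbp1 at −2.29, the bone morphogenetic protein family member Gdf10 at −2.28, the glucuronyltransferase B3gat2 at −2.20, the cholesterol-esterifying enzyme Lcat at −2.15, the secreted signal Wnt4 at −2.13 (497, 519, 172 and 111) and Trhr at −2.07. Trhr is the receptor of the peptide made from Trh. It read 214 with PBS, 509 with NAP, 126 with KA and 114 with KA+NAP, so that NAP stood 1.21 above PBS, as it stood 0.88 above for Lcat and 0.75 for Gdf10. Ttr, transthyretin, the main secreted protein of choroid plexus, completed the 15 at −2.10, with 354, 359, 453 and 76, so only the KA+NAP array was low.

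The response was then described over 52 gene lists. Counts of called members stand beside shares of all genes of 5.67% higher, 2.41% lower and 8.08% either way. Of the lists, the CC chemokines had 16 members on the array, but only 4 passed the filter. Ccl7 and Ccl2 led them, Ccl3 read 25 with PBS, 40 with NAP, 85 with KA and 102 with KA+NAP, and Ccl27 was lower at −0.35. The other 12 members had mean intensities below the filter, and of these Ccl4 read 30, 48, 54 and 95. The median of the 4 was 2.98, but −0.35 with the filter on the PBS and NAP arrays, which kept Ccl2 and Ccl27, left out Ccl7 and Ccl3 and let in Ccl19 (27, 94, 2 and 37, at −1.15). Among 8 CXC and CX3C chemokines 2 were higher and 2 lower, with a median of −0.11 that was 0.48 with PBS as the reference. The neutrophil chemoattractant Cxcl1 (19, 19, 94 and 157) and the scavenger chemokine Cxcl16 (130, 155, 216 and 497) were higher, at 2.53 and 1.62. Cxcl13 and Cxcl12 were lower, Cxcl12 with 1711, 2644, 739 and 680 at −1.94, although its second probe set stood at −0.23. Of the receptors, 3 passed and none was called, with Cxcr4, the receptor of Cxcl12, at 0.73.

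Cytokine receptors and adaptors lay on the higher side. All 11 members of the IL-1, TNF and Toll list past the filter (21 on the array) were above 0, 7 of them at least 2-fold, with a median of 1.20 against 0.03 for all genes, and both kainic acid arrays were above both others in all 11. A filter at the 75th percentile gave a median of 2.49, and no filter 0.80. The 10 members left out had mean intensities below the filter, with Il1rl1 at −0.40, and Icam1, Tlr2 and Ripk2 passed only through their kainic acid arrays. Tnfrsf12a had 58 with PBS, 71 with NAP, 830 with KA and 800 with KA+NAP. The adhesion molecule Icam1 (45, 35, 116 and 168) differed by 1.98, the Toll-like receptor gene Tlr2 (62, 38, 96 and 151) by 1.75 and the endotoxin co-receptor Cd14 (69, 190, 517 and 624) by 1.66. The TNF receptor Tnfrsf1a was at 1.22, the NF-kappaB inhibitor Nfkbia at 1.20 and the adaptor kinase Ripk2 at 1.03. In the IL-6 family list 3 of 10 were called, all higher: the acute-phase serine protease inhibitor Serpina3n at 2.43 (26, 43, 231 and 276), the transcription factor Stat3 at 1.63 (238, 368, 1112 and 1162) and Cebpd at 1.20. Both probe sets of Stat3 and both of Cebpd gave at least 2-fold. In the colony-stimulating factor list none of 3 was called, and Csf1r, the receptor on which microglia depend, was level at 0.06.

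MHC class II genes, whose products present peptides to helper T cells, were higher with KA+NAP. Here KA+NAP minus NAP and KA minus PBS read differently. Class II genes are transcribed from promoters with conserved elements named X and Y, and the sequences upstream of 4 of these genes are shown because the classical class II genes were highest together on the KA+NAP array. They are the 150 bases before the annotated start in RefSeq on GRCr8, 5′ to 3′ in the direction of transcription, with capitals marking CTNGCAAC, an X-box-like run, and TGATTGG, the Y box.
RT1-Da: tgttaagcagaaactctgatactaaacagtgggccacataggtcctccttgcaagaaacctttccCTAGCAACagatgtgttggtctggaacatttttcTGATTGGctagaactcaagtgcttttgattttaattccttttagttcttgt
RT1-Ba: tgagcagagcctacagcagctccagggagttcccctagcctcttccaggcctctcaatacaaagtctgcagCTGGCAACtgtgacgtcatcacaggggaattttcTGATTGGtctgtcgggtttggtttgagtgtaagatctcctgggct
RT1-Db1: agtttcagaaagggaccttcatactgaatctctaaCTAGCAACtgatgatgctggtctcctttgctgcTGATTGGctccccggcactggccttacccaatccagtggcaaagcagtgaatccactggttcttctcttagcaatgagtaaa
RT1-DMa: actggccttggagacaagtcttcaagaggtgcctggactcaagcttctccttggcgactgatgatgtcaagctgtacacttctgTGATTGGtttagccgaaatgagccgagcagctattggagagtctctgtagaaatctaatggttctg
These lie at chr20:4515265-4515414 (plus strand), chr20:4576907-4577056 (plus strand), chr20:4560163-4560312 (minus strand) and chr20:4712336-4712485 (minus strand). The X-box-like run began at −85, −79 and −115 and the Y box at −51, −45 and −82 relative to the start in the first 3. RT1-DMa matched only the Y box letters, at −66, and is shown as a gene without the exact X-box-like run. On the array it was not called, at 0.25 (233, 269, 219 and 322). RT1-Bb, not printed, also matched the Y box letters alone, and its difference was 1.92 on a probe set below the filter. Of 7 class II genes looked up, 6 had a promoter entry, 5 held the Y box and 3 both. Cd74, called at 1.21, matched neither. Searched on both strands, the X-box-like run was in 2% of all 33469 promoter windows of 150 bases, the Y box in 4.67% and both in 0.105%. A match describes letters, not binding, and a window without a match may still hold a variant of the element. No link between matches and differences was tested.

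On the array RT1-Da had an intensity of 99 with PBS, 196 with NAP, 140 with KA and 805 with KA+NAP, a difference of 1.98. RT1-Ba had 47, 141, 57 and 431, a difference of 1.55, and Cd74, the invariant chain that escorts class II molecules, had 108, 348, 211 and 821, a difference of 1.21. In these 3 genes KA+NAP was highest, NAP next, and KA below NAP. RT1-Db1 followed the same order (31, 90, 59 and 208, at 1.12), while RT1-DMb, a chain of the peptide exchanger, had 233, 263, 284 and 620 at 1.21. The immunoproteasome subunits Psmb8 (1.20) and Psmb9 (1.06) were called too. In all, 7 of 11 members past the filter were at least 2-fold higher, the median was 1.12, and 10 of the 11 had KA+NAP as the highest array, against 32.2% of all genes. In KA minus PBS none of the 11 was called and the median was 0.23. Another 5 members on the array did not pass the filter, among them RT1-Bb (14, 38, 27 and 172) and Ciita, the class II transactivator, which was dim throughout (25, 13, 13 and 36).

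**Figure D3:**
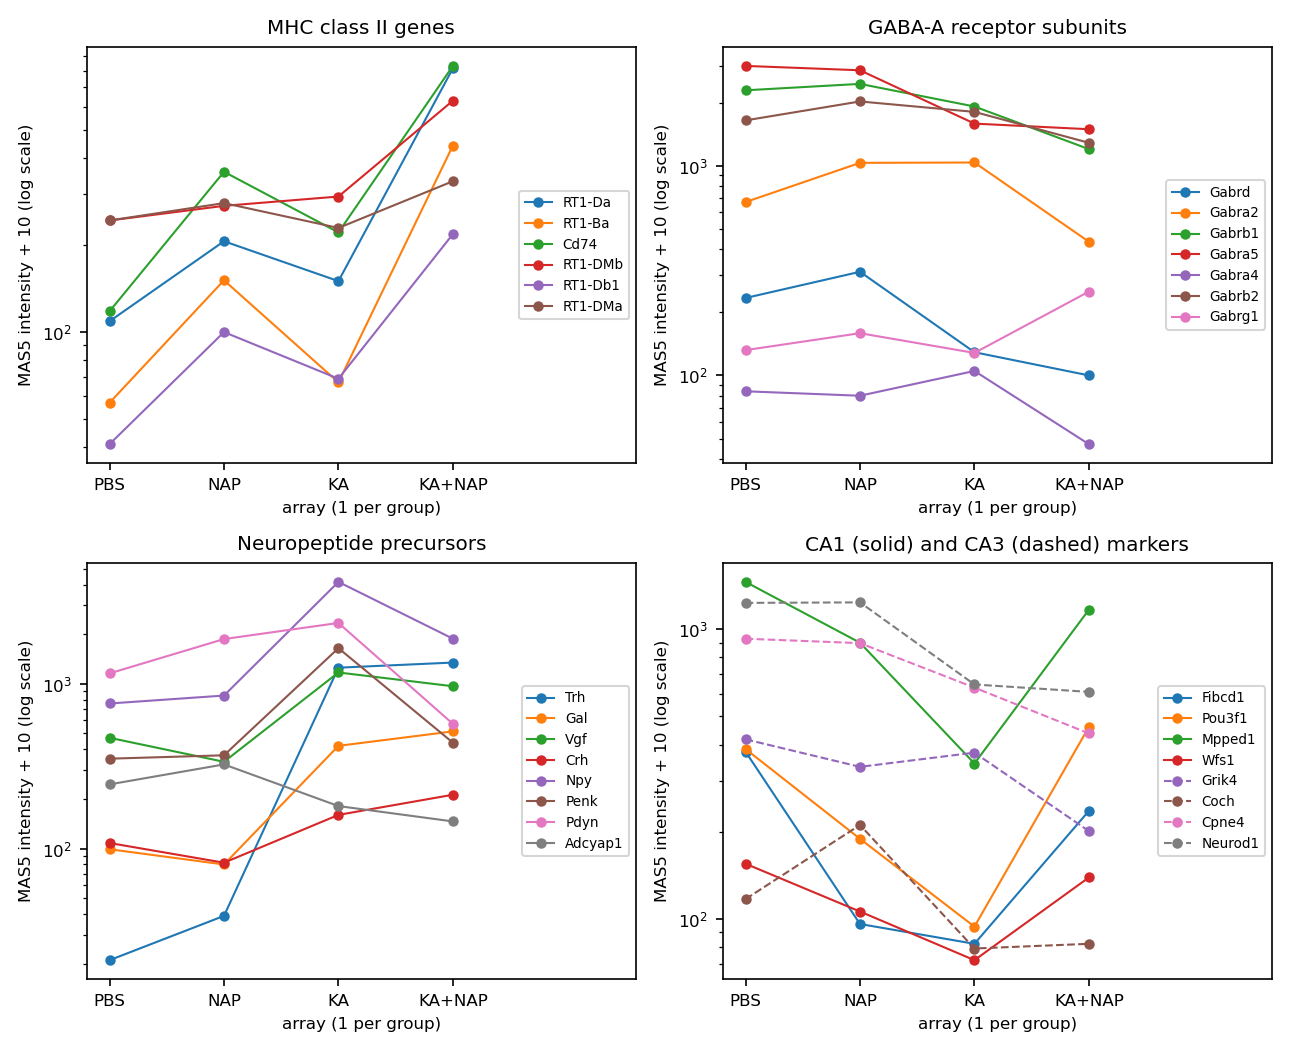
MAS5 intensity plus 10 on log scales for 4 groups of genes on the PBS, NAP, KA and KA+NAP arrays, 1 line per gene joining 4 single arrays. The class II genes peak on KA+NAP, 6 of 7 GABA-A subunits are lowest there, Npy, Penk and Pdyn are higher with KA than with KA+NAP, and the CA1 markers are lowest with KA while the CA3 markers are low with KA+NAP.

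Receptors and enzymes of phagocytes lay on the higher side throughout the list. All 27 members past the filter (29 on the array) were above 0, 13 were at least 2-fold higher, the median was 0.97, and KA+NAP was the highest array for 26 of 27. Lgals3, galectin 3, a marker of activated microglia and macrophages, read 113 with PBS, 353 with NAP, 1185 with KA and 2299 with KA+NAP. The beta-glucan receptor Clec7a had 10, 92, 122 and 559, the inhibitory Fc receptor Fcgr2b 70, 152, 340 and 658, and the NADPH oxidase subunit Cybb 27, 140, 113 and 492. For Cybb the KA array was below the NAP array, so the kainic acid arrays did not stand apart from the others. In 24 of the 27 genes NAP was above PBS, with a median NAP minus PBS of 0.59, and with PBS as the reference the list median was 1.58. Aif1, which marks microglia and macrophages, was at 203, 341, 219 and 486, a difference of 0.50.

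Genes of resting microglia did not follow as a list. None of 6 was called higher, 1 was called lower, and the median was −0.43. Members went both ways, with 2 of the 6 above 0, up to 0.43, and Cx3cr1, below the filter, at 0.53. Of 5 general microglia markers, 4 were above 0 and 1 below, with a median of 0.50. P2ry12, the ADP receptor of resting microglia, had 1071 with PBS, 773 with NAP, 232 with KA and 368 with KA+NAP, a difference of −1.05. Tmem119 (289, 253, 92 and 144) was at −0.77 and Slco2b1 at −0.61. In a tissue extract fewer cells of a type and less RNA per cell cannot be told apart. Neutrophil markers summed to 72 with PBS, 150 with NAP, 410 with KA and 639 with KA+NAP over 4 genes. S100a9 (13, 59, 116 and 337) and S100a8 (16, 40, 59 and 141), which neutrophils store in quantity, differed by 2.33 and 1.59, and the gelatinase Mmp9 (39, 36, 233 and 159) by 1.88. Cxcr2, the neutrophil chemokine receptor, was at 15 or less on every array. No lymphocyte marker passed the filter. The share of these cells in the immune lists was not tested.

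Interferon response genes were called higher in 5 of 15, with a median of 0.73 against 0.03 in KA minus PBS. Ifitm1 (30, 157, 192 and 545) was at 1.73, the interferon-regulatory factor Irf9 (195, 132, 378 and 426) at 1.62, Irf8 at 1.27 and Ifitm3 at 1.17. Usp18, which removes the ubiquitin-like ISG15, had 82, 45, 55 and 111, so that its 1.14 rests on a NAP array lower than the PBS array. Complement genes were mixed, with 1 higher and 1 lower of 9 and a median of −0.20. The C5a receptor C5ar1 had 51, 121, 116 and 323 at 1.35, and the decay-accelerating factor Cd55 had 60, 126, 51 and 35 at −1.60. The NAP array lay above the PBS array for 7 of the 9, with a list median of 0.96, and with PBS as the reference the median for KA+NAP was 0.54.

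Reactive astrocyte genes had the highest median of the lists with more than 5 members past the filter, 1.91, and 10 of 15 were at least 2-fold higher. Nes led at 3.30. S100a10, a partner of annexin A2, had 413 with PBS, 504 with NAP, 3335 with KA and 4475 with KA+NAP, a difference of 3.13. Cd44, the hyaluronan receptor, had 44, 96, 700 and 860 at 3.04, and Emp1 had 95, 146, 1013 and 1202 at 2.96. Timp1, an inhibitor of metalloproteinases, had 175, 680, 1924 and 2589. Its difference was 1.91 with NAP and 3.39 in KA minus PBS, and NAP alone stood 1.90 above PBS. Vim, vimentin, had 851, 1588, 3688 and 5255 at 1.72, and Gfap, the astrocyte filament, was bright on all arrays (5744, 8065, 8147 and 9776) and differed by 0.28. With PBS as the reference the list median was 2.96.

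Genes of resting astrocytes lay lower, with 5 of 13 at least 2-fold lower, none higher, and a median of −0.51. Beside Gjb6, the tight junction gene Cldn10 (449, 411, 63 and 119) was at −1.71 and the sodium bicarbonate cotransporter Slc4a4 (1592, 1844, 879 and 650) at −1.49. Aldh1l1, a folate enzyme used as an astrocyte marker, was just at 2-fold (369, 386, 181 and 188). The second glial connexin, Gjb2, was different: it had 221 with PBS, 862 with NAP, 372 with KA and 407 with KA+NAP, so its −1.06 became 0.85 against PBS. The 5 general astrocyte markers went both ways, 2 above and 3 below 0. Their sum, 23711 with NAP and 22340 with KA+NAP, holds a higher Gfap and a lower Aldoc (4955 with NAP and 2668 with KA+NAP, at −0.89). The PAR bZIP transcription factor Hlf (699, 664, 94 and 184) was lower at −1.80, with its 3 probe sets between −1.80 and −1.51.

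Matrix genes were called higher in 11 of 21 with a median of 1.22, and 15 of the 21 had both kainic acid arrays above the others. Spp1, Fbln2, Lox and Cd44 led the list, and the collagen gene Col1a2 (75, 270, 75 and 136) was lowest at −0.94, where NAP was again the highest array. A filter at the 75th percentile gave a median of 2.56, and no filter 0.64. Among proteases and inhibitors 6 of 16 were higher and 1 lower. The aggrecan-cleaving enzyme Adamts1 (129, 168, 1162 and 1390) was at 2.98, the urokinase gene Plau (25, 31, 218 and 220) at 2.49, Mmp14 at 1.20 and Adamts9 at 1.13. Timp4 was the lower gene, with 264, 286, 100 and 85 at −1.64, and so lay opposite to Timp1. Of 15 integrins and laminins 4 were higher, the laminin chain Lama4 at 1.64, Itgav at 1.26, Itgb1 (796, 1042, 1914 and 2337) at 1.16 and Lamc1 at 1.10.

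Among cytoskeletal genes, the actin-binding list lay higher and the tubulin list near 0. The part of cell content in this contrast was not tested. Actin-binding genes were higher in 17 of 29, with a median of 1.16, and KA+NAP was the highest array in 26 of 29. Flnc, filamin C, which cross-links actin, had 57 with PBS, 101 with NAP, 820 with KA and 821 with KA+NAP. Msn, moesin, which ties actin to the membrane, had 218, 302, 1556 and 2273 at 2.87, the smooth muscle gene Tagln 136, 308, 1048 and 1832 at 2.53, and Cnn2 166, 249, 714 and 1339 at 2.38. Of 10 tubulins, by contrast, Tubb6 was the only one at 2-fold. The lowest were Tubb4a (707, 692, 391 and 383) at −0.84, Tuba8 at −0.66 and Tuba4a at −0.63. The list median was −0.12, with 4 members above and 6 below 0, and the neuronal isotype Tubb3 was at −0.25. Microtubule-associated and ADNP-related genes had a median of −0.21 over 23, with none higher and 2 lower (5.67% and 2.41% of all genes). Adnp, the gene whose protein NAP is part of, had 1386 with PBS, 1386 with NAP, 1566 with KA and 1548 with KA+NAP. Its difference was 0.16, with the 3 probe sets between −0.15 and 0.31. The neuropeptide PACAP and its receptor were the 2 lower genes: Adcyap1 (235, 314, 171 and 136) at −1.15 and Adcyap1r1 (795, 981, 346 and 407) at −1.25.

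Calcium-binding S100 proteins and annexins were higher in 10 of 18, with a median of 1.30. S100a6 (51, 65, 125 and 337) was at 2.21 and S100a11 (95, 146, 283 and 660) at 2.10, and in both KA+NAP exceeded KA. The median was 0.70 with the filter at the 75th percentile, which removes S100a8, S100a9 and other dim members. Cell cycle genes were higher in 9 of 18 (29 on the array), with a median of 1.01. The proliferation marker Mki67 had 24, 57, 81 and 250 at 1.96, Top2a, the topoisomerase of dividing cells, 31, 70, 107 and 298 at 1.94, cyclin D1 (Ccnd1) 221, 252, 551 and 873 at 1.75 and the replicative helicase subunit Mcm2 65, 80, 143 and 277 at 1.67. KA+NAP was the highest array for 15 of the 18.

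**Figure D4:**
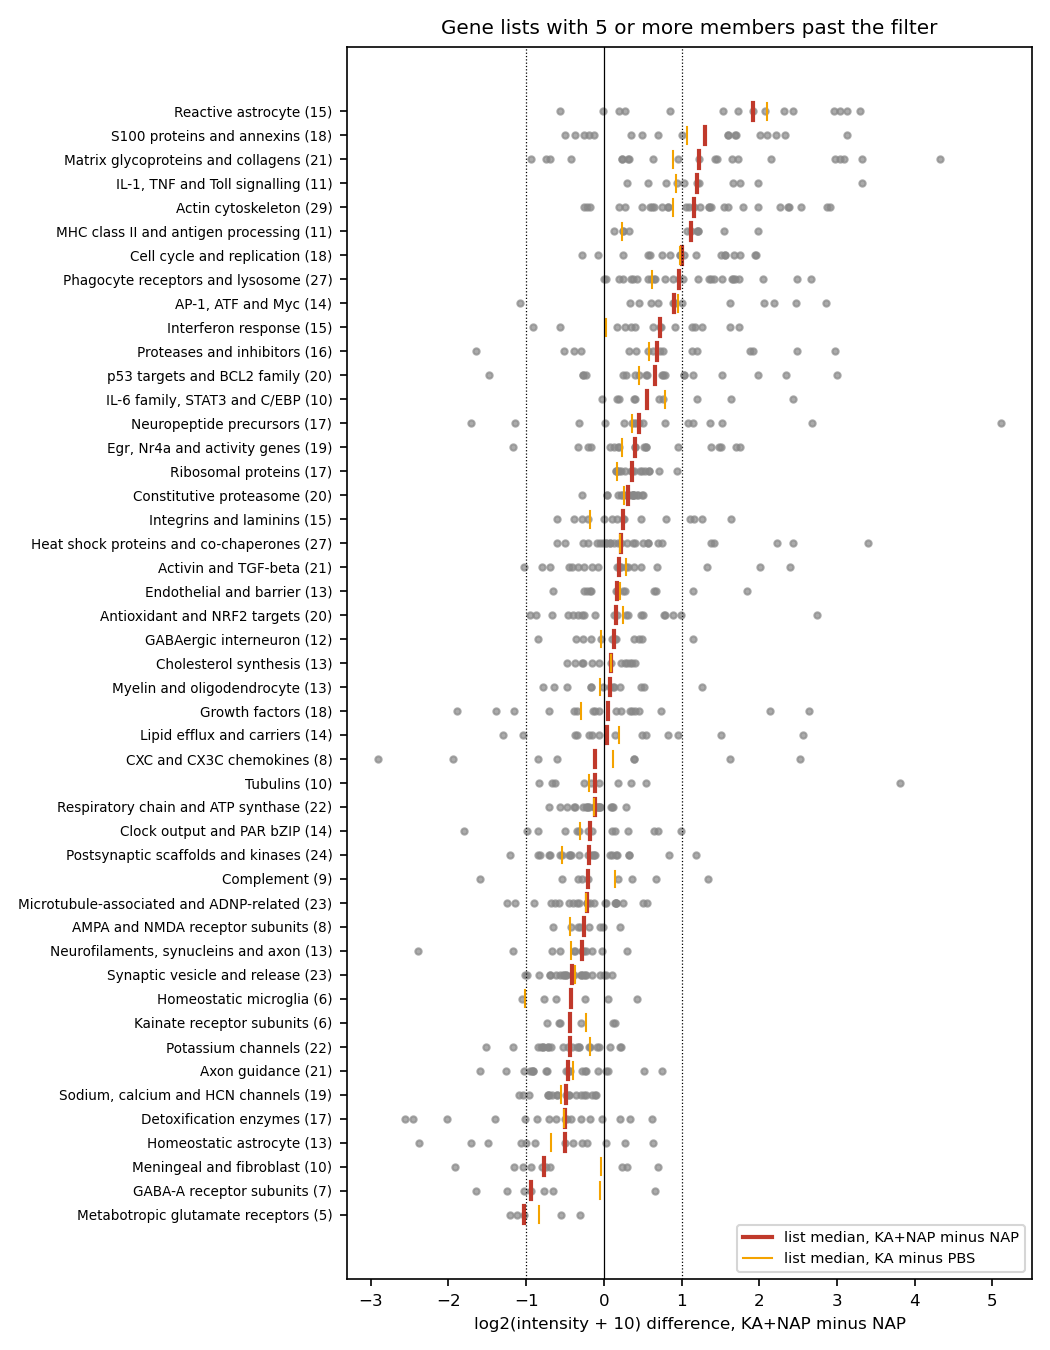
KA+NAP minus NAP difference of log2(intensity + 10) for every member past the filter (grey points, 1 per gene) of the lists with 5 or more such members, with the number of members in brackets. Red bars mark list medians, from 1.91 for reactive astrocyte genes to −1.03 for metabotropic glutamate receptors; yellow bars mark the median of the same genes in KA minus PBS, and dotted lines 2-fold.

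Stress and cell death genes were higher in part. Of 27 heat shock proteins and co-chaperones 5 were called, all higher (5.67% of all genes), and the median was 0.22. Beside Hspb1 these were Hspb8 (162, 190, 868 and 1067) at 2.43, the inducible Hsp70 gene Hspa1a (189, 193, 496 and 942) at 2.23, Hspa2 at 1.41 and the co-chaperone Bag3 (130, 109, 420 and 300) at 1.38. In the antioxidant list 1 of 20 was called (8.08% of all genes), Hmox1, the haem-degrading enzyme, with 56, 77, 404 and 571 at 2.74. The cystine transporter Slc7a11 was lowest there at −0.95 (752, 1277, 592 and 655). All 3 Gadd45 genes, which respond to DNA damage and other stress, were higher: Gadd45g (71, 65, 599 and 591) at 3.0, Gadd45a (47, 72, 463 and 407) at 2.35 and Gadd45b (120, 137, 521 and 411) at 1.52. In that list of p53 targets and BCL2 family genes 7 of 20 were higher, including the survival genes Bcl2a1 at 1.98 and Mcl1 at 1.03 and the cell cycle inhibitor Cdkn1a at 1.04. Sesn1, a p53 target of the sestrin family, was the lower one, with 557, 686, 244 and 240 at −1.48.

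Transcription factors of the immediate early class were higher in some families at 24 h, the 1 time sampled. In the AP-1, ATF and Myc list 6 of 14 were higher and 1 lower. The median was 0.91, and 0.70 with the filter on the PBS and NAP arrays. Fos had 295 with PBS, 379 with NAP, 1477 with KA and 1760 with KA+NAP, a difference of 2.19. Atf3, which marks stressed and injured neurons, had 18, 16, 161 and 178 at 2.85, Fosl1 25, 20, 148 and 156 at 2.47, Maff 17, 38, 219 and 190 at 2.06 and Myc 54, 56, 308 and 194 at 1.63. Atf3, Fosl1, Maff and Myc were below the filter value on both arrays without kainic acid and passed only through their kainic acid arrays. Mycn was lower at −1.07 and Fosb (68, 43, 89 and 96) was just at 2-fold. Of 19 Egr, Nr4a and other activity genes 5 were higher and 1 lower. Ier3 was at 1.75, Klf6 (204, 184, 474 and 620) at 1.70, Ier2 at 1.47 and Klf4 at 1.38. The phosphatase gene Dusp6 (383, 332, 305 and 964) stood at 1.51 through KA+NAP alone, and its 3 probe sets ranged from 0.21 to 1.51. Nr4a3, an orphan nuclear receptor, was lower (1781, 1549, 528 and 683, at −1.17), and Arc, a synaptic immediate early gene, was at −0.34.

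Neuropeptide precursors divided into 6 higher and 2 lower of 17, with a median of 0.45. After Trh came galanin (Gal) with 89, 70, 410 and 504 at 2.68, the secreted granule protein gene Vgf (460, 326, 1161 and 956) at 1.52 and corticotropin-releasing hormone (Crh) at 1.37. Npy, neuropeptide Y, had 749 with PBS, 838 with NAP, 4142 with KA and 1868 with KA+NAP. Its difference of 1.15 compared with 2.45 in KA minus PBS. Penk, proenkephalin, was higher with KA (1635, against 341 with PBS) and near its controls with KA+NAP (429, against 358 with NAP), a difference of 0.25. Bdnf, the neurotrophin, had the same shape, with 655, 642, 1412 and 594, at −0.11 with NAP and 1.10 without. Pdyn, prodynorphin, had 1146, 1858, 2330 and 561, at −1.71 with NAP and 1.02 without. These differences between differences rest on single arrays and were not tested. The dentate granule cell marker sum was 1345 with KA+NAP and between 2125 and 3113 on the other arrays, but it includes Pdyn. Prox1, a granule cell transcription factor and the other bright marker in the sum, read 932, 1194, 753 and 747, at −0.67. KA and KA+NAP were thus nearly equal for Prox1, and the drop of the sum between them came from Pdyn. The part of granule cell content in the Pdyn value was not tested.

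Growth factor genes were called in both directions. Hbegf (55, 60, 455 and 427) was higher at 2.64 and Ccn2, connective tissue growth factor, at 2.14 (201, 172, 494 and 794). Ccn3 (330, 459, 50 and 116) was lower at −1.90, neurotrophin 3 (Ntf3) at −1.39 (316, 403, 208 and 148) and Igf2 at −1.15. In the activin and TGF-beta list 3 of 21 were higher and 1 lower. Inhba, the activin A subunit, had 160, 138, 1534 and 767 at 2.39, the activin-binding protein Fstl3 8, 20, 147 and 111 at 2.01 and the BMP target Id1 183, 202, 356 and 522 at 1.33. Bmp6 (147, 307, 156 and 146) was at −1.02 because NAP alone was high.

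Receptors and channels of neurons lay on the lower side. GABA-A receptor subunits, which form the main inhibitory chloride channels, had a median of −0.93 over the 7 past the filter (11 on the array), 3 were at least 2-fold lower, and KA+NAP was the lowest array for 6 of the 7, against 25.7% of all genes. Gabra2 had 661 with PBS, 1022 with NAP, 1026 with KA and 424 with KA+NAP, a difference of −1.25 with NAP and 0.63 without. Gabrb1 had 2279, 2446, 1906 and 1190 at −1.03. Gabrd, the extrasynaptic delta subunit typical of granule cells, had 224, 302, 119 and 90 at −1.64, and its second probe set stood at −0.43. Gabra5 (2982, 2842, 1578 and 1483) was at −0.93 and alike in the comparison without NAP, at −0.91. The list median without NAP was −0.04.

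Glutamate receptors of the metabotropic class had a median of −1.03 over the 5 past the filter (6 on the array), all below 0, and 3 at least 2-fold lower. Grm2 (126, 136, 57 and 53) was at −1.21, Grm7 (74, 112, 83 and 46) at −1.12 and Grm3 (556, 577, 280 and 278), which astrocytes also express, at −1.03. No kainate receptor subunit or Neto protein was called among 6. Grik4, the high-affinity subunit enriched in CA3, had 407 with PBS, 325 with NAP, 365 with KA and 191 with KA+NAP, a difference of −0.74. None of 8 AMPA and NMDA subunits was called either. Gria2, which makes AMPA receptors impermeable to calcium, was the lowest at −0.66 (5303, 5003, 2956 and 3173).

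Voltage-gated channels followed the same direction. All 19 sodium, calcium and HCN channel genes past the filter (24 on the array) were below 0, with a list median of −0.49. At least 2-fold lower were 2 of them (2.41% of all genes), Cacna1b (477, 620, 353 and 285) at −1.09 and Cacng3 at −1.04. Of 22 potassium channel genes 19 were below 0 and 2 were called. Kcnip2, an accessory subunit of A-type channels, had 932, 927, 350 and 317 at −1.52, and Kcnq5 1994, 1907, 1289 and 845 at −1.16. Synaptic vesicle genes had a median of −0.41 over 23, with 20 below 0, against 47.3% of all genes. Syt1, the calcium sensor of release, was called at −1.02 with 470, 554, 475 and 269, and the synapsin gene Syn2 was at −0.99 in its brightest probe set. The vesicular glutamate transporter Slc17a7 was at −0.70. In the postsynaptic list 1 of 24 was higher, Homer2 at 1.18, and 1 lower, Camk2g at −1.21 (8.08% of all genes were called either way). Axonal genes were below 0 in 12 of 13, led by Sncg and by the neurofilament gene Nefm (5074, 5289, 3269 and 2347) at −1.17. The 6 pan-neuronal markers, all below 0, summed to 16129 with NAP and 13340 with KA+NAP, and to 17382 with PBS and 13322 with KA. Rbfox3 (NeuN) read 1263, 1284, 710 and 902 at −0.50. How much of the receptor and channel values follows the neuronal content was not tested.

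CA3 and CA1 marker genes went opposite ways. The CA3 markers had a median of −0.86, with Coch (107, 201, 69 and 72) at −1.36, Cpne4 (918, 886, 619 and 427) at −1.04 and Neurod1 (1224, 1229, 635 and 598) at −1.03. The 4 CA1 markers had a median of 0.84. Fibcd1 had 368 with PBS, 86 with NAP, 72 with KA and 226 with KA+NAP, and Pou3f1 376, 179, 84 and 450. Mpped1 (1448, 889, 334 and 1159) and Wfs1 (145, 96, 62 and 129) were at 0.38 and 0.39. In all 4 the KA array was lowest, NAP was below PBS, and KA+NAP was closer to PBS than to KA. The comparison with NAP therefore starts from a NAP array already low in CA1 genes. How the dissected area differed between animals was not tested.

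Axon guidance genes were lower in 3 of 21 with a median of −0.46. Efnb3 (820, 867, 312 and 280) was at −1.60, Epha7 (210, 269, 193 and 106) at −1.27 and Slit2 at −1.03, with a second Slit2 probe set at −0.08. Detoxification enzymes were lower in 5 of 17 and higher in none, with a median of −0.49. Beside Nat8f5 and Ephx2 these were the sulfotransferase Sult1a1 (272, 216, 41 and 46) at −2.01, the glutathione transferase Gsta4 (764, 1055, 577 and 394) at −1.40 and the retinal dehydrogenase Aldh1a1 at −1.02. Lipid genes divided, with the lipid droplet protein Plin2 (75, 106, 569 and 673) at 2.56 and cholesterol 25-hydroxylase Ch25h at 1.50, and lipoprotein lipase Lpl (1493, 1652, 902 and 664) at −1.30 and Apoc1 at −1.04. No gene of cholesterol synthesis or of the respiratory chain was called. Ribosomal protein and proteasome genes shifted by small amounts in one direction. All 17 ribosomal genes past the filter were above 0 with a median of 0.36, and the 18th on the array, Rpl30, was dim (19, 23, 20 and 3). Of 20 proteasome genes 19 were above 0, with a median of 0.32, and no gene of either list past the filter reached 2-fold.

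The calls among endothelial genes were higher, and those among border-tissue genes were lower. In the endothelial list 2 of 13 were higher (5.67% of all genes), the VEGF receptor Kdr (78, 122, 256 and 462) at 1.84 and Eng at 1.14. The list median was 0.17, with 8 members above and 5 below 0. Endothelial markers summed to 1500 with NAP and 1474 with KA+NAP, 2 above and 2 below 0. Of the oligodendrocyte genes only the transcription factor Sox10 (71, 58, 68 and 153) was called, at 1.26, and Mag was at 0.51. Meningeal and fibroblast genes had a median of −0.77 over 10, with 3 lower (2.41% of all genes): Ptgds (1295, 2855, 810 and 746) at −1.92, Igf2 (157, 528, 119 and 232) at −1.15 and Ogn (63, 237, 59 and 110) at −1.04. In all 3 the NAP array was the highest, and the list had a median NAP minus PBS of 1.18. Against PBS, Igf2 was at 0.54 and Ogn at 0.72, and the list median was 0.54. A filter at the 75th percentile also put it above 0, at 0.27.

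The size of the kainic acid effect with NAP was set beside that without it for the called genes. Both differences used separate arrays. The genes below were named for having the largest gaps between them in either direction, so the direction of each gap was set by that choice. Among the genes called higher with NAP, 241 were not at 2-fold without it, and among those called lower 145 were not. The gene with the largest gap above was Car3, carbonic anhydrase 3, followed by Fibcd1 and Pou3f1. On the other side were Rprm, an inducer of cell cycle arrest, with 54 with PBS, 89 with NAP, 975 with KA and 194 with KA+NAP (1.04 with NAP and 3.94 without), and Lox (3.10 and 5.66). Ccl2 (4.79 and 6.86) and Hspb1 (3.40 and 5.35) also had smaller differences with NAP, and their KA and KA+NAP intensities were nearly equal, so that the gap came from a NAP array above the PBS array. The syndecan gene Sdc1 (29, 65, 621 and 355) was at 2.28 and 4.02, the sodium/myo-inositol transporter Slc5a3 (248, 397, 1659 and 976) at 1.28 and 2.69, and the hyaluronan-binding protein gene Tnfaip6 (33, 65, 265 and 165) at 1.22 and 2.68. In these 3 genes KA+NAP was below KA and NAP was above PBS. Among lower genes, those chosen for being less low with NAP included P2ry12 (−1.05 and −2.16), Hlf (−1.80 and −2.77), Cldn10 (−1.71 and −2.65), Aifm3 (−1.52 and −2.32), Acss1 (−1.23 and −2.06) and Akap5 (−1.37 and −2.05). Rasgrf2, a guanine nucleotide exchange factor, was called lower only with NAP (100, 234, 107 and 72, at −1.57 and 0.09), where its NAP array stood apart. Creg2 (1.51 and −0.90), Prcp (1.93 and −0.32) and Inpp5b (1.22 and −0.92) were higher with NAP and lower without it.

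**Figure D5:**
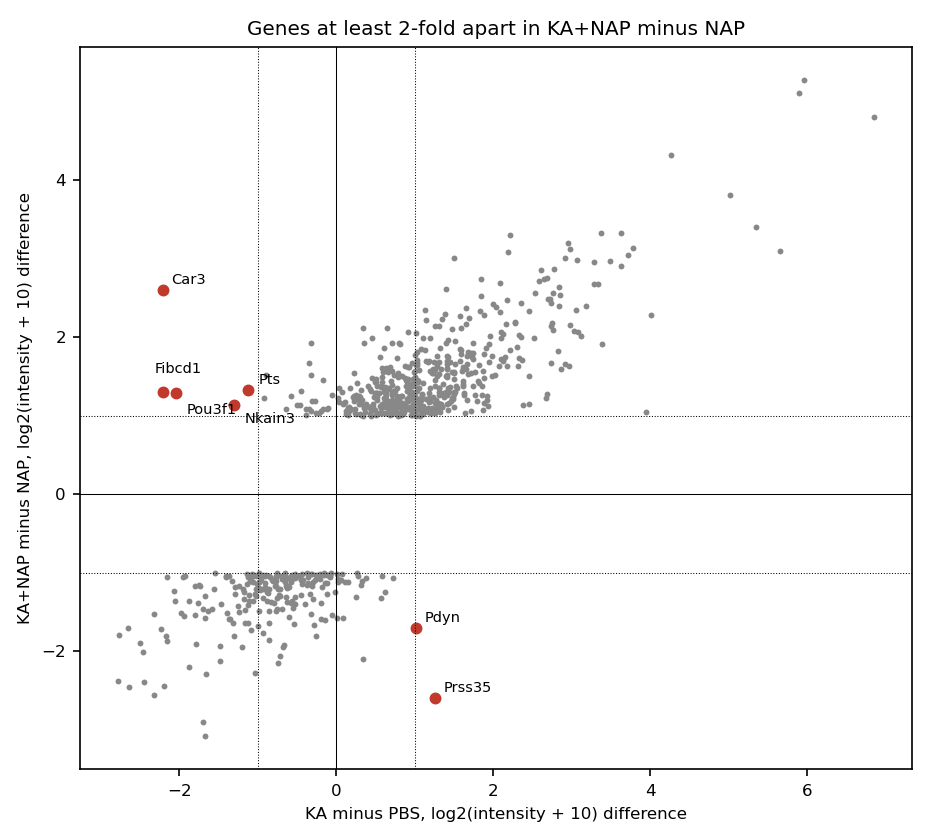
KA+NAP minus NAP (y axis) against KA minus PBS (x axis), both log2(intensity + 10) differences, for the 767 genes at least 2-fold apart in the former. Dotted lines mark 2-fold, and the 7 named red genes are at 2-fold in opposite directions in both; the remaining genes lie mostly in the upper right and lower left.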

How the data were processed

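The authors deposited 1 table of linear intensities for 31099 probe sets on 4 Affymetrix rat arrays, computed with MAS5 per the submitters' processing notes. Its version is not given in the sources used here. Per the labels, each sample's label was made from 500 ng of total RNA by the 2-cycle protocol, after all RNA had been extracted at the same time. Without its extreme 2% at either end, each array averaged 250.1, so the deposited intensities were already scaled.

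Probe sets were named through the platform annotation, with symbols updated to GRCr8: 20832 had 1 symbol, 436 had several and 9780 were not listed, and these last groups were not used. Differences are KA+NAP minus NAP of log2(intensity + 10), which understates those of dim genes. Python 3.11.15 with pandas 2.3.3 was used, and the counting step was tested on simulated data. Each group had 1 array, so only sizes are given.

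The comparison, the 52 gene lists and the rule for naming genes were chosen with earlier results of these data known. Named were the 15 highest and 15 lowest differences, the 4 members of each list farthest from 0, called members where a list had 8 or fewer, the 8 highest and 8 lowest gaps to KA minus PBS among genes called in each direction, and 15 further genes whatever their values. Members of a list that did not pass the filter, marker genes and genes at the edge of a threshold are named outside it.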

Additional observations from a re-analysis of the deposited data

Results flagged for a closer look

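At 2-fold, 7 genes went in opposite directions in KA+NAP minus NAP and in KA minus PBS, which share no array. Each value is from single arrays, and the difference between the 2 effects was not tested. Car3, carbonic anhydrase 3, was at 2.59 with NAP and −2.20 without, with intensities of 617 with PBS, 67 with NAP, 126 with KA and 455 with KA+NAP. Fibcd1 was at 1.30 and −2.20, and Pou3f1 at 1.28 and −2.04. Pts, an enzyme of tetrahydrobiopterin synthesis, was at 1.32 and −1.12, with intensities of 245, 82, 107 and 220. Nkain3 was at 1.14 and −1.30, with 98, 35, 34 and 89. In these 5 genes the NAP and KA arrays were both below the PBS array.

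In the other direction Pdyn was at −1.71 with NAP and 1.02 without, and Prss35 at −2.60 and 1.26. For both the NAP and KA arrays were above the PBS array, and KA+NAP was the lowest of the 4. With PBS as the reference, KA+NAP was lower than PBS for Car3 (−0.43), Fibcd1 (−0.68), Pts (−0.15) and Nkain3 (−0.13).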

How the results depend on the processing

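No paired analysis was possible because every group had 1 array, and for the same reason no replicate could be left out. The counts of 538 higher and 229 lower genes were 904 and 439 with no filter on dim genes, and 199 and 97 with the filter at the 75th percentile, where fewer genes were counted. Under the other 7 settings they ranged from 399 to 704 and from 162 to 264, and with PBS in place of NAP they were 704 and 202, of which 451 and 129 genes were shared with the main lists. Mean over all probe sets gave 522 and 223, quantile normalization 509 and 263, and filters chosen after the data had been seen 493 and 224 (on the PBS and KA arrays) and 399 and 264 (on the PBS and NAP arrays). The median over all genes lay between −0.01 (75th percentile) and 0.03.

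With PBS as the reference, 8 of the 264 named genes were called in the main comparison and changed sign: Car3 to −0.43, Fibcd1 to −0.68, Nkain3 to −0.13, Pts to −0.15, Gjb2 to 0.85, Grifin to 0.31, Igf2 to 0.54 and Ogn to 0.72. Some named genes that were not called changed sign too, among them Col1a2 from −0.94 to 0.78. Another 83 named genes and 9 of 52 list medians kept their direction or were not called but moved by 0.5 or more, and a pseudocount of 32 moved 13 named genes by as much. The median of the CC chemokine list was −0.35 with the filter on the PBS and NAP arrays, which kept other members. How far dim signals stood above background was not examined.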
